A study of Homo sapiens with 4 samples.

Results

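Metallothioneins are small cysteine-rich proteins that bind zinc and copper and buffer the free metal in the cytosol. Their genes are switched on when MTF1, a zinc-sensing transcription factor, binds metal response elements in their promoters, and MTF1 also drives SLC30A1, which exports zinc across the plasma membrane. The transcripts described here are those of 9 genes chosen by symbol from the 39261 genes of the tables: the metallothionein genes MT2A, MT1X, MT1E, MT1A, MT1F, MT1M and MT1G, and MTF1 and SLC30A1. All 9 have a row in the tables, and 8 of them had a read in at least 1 library.

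The 4 libraries, 1 per group, came from total RNA of human breast cancer lines. MDA-MB-231, a triple-negative line, carried a lentiviral construct for TMEM126A knockdown or the control vector (sh-NC in the series description). MCF10-Ca1a (Ca1a), which descends from MCF10A mammary epithelial cells and forms tumours, carried a lentiviral TMEM126A overexpression construct or the control vector pCDH. All cultures were at passages 10 to 15, and the sources used here do not say whether the transduced cells were clones or pools. MDA-MB-231 grew in L15 medium with 10% FBS. Ca1a grew in DMEM/F12 with 5% horse serum and insulin (10 ug/ml), EGF (20 ng/ml), cholera toxin (100 ng/ml) and hydrocortisone (0.5 ug/ml), so line and medium cannot be told apart. TMEM126A encodes a mitochondrial inner membrane protein.

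The libraries held 20673373 to 21405193 reads in genes. TMEM126A followed the labels, at 1.07 FPKM (fragments scaled to transcript length and to depth) in knockdown cells against 35.5 FPKM in control cells, and at 651 FPKM in overexpressing cells against 17.3 FPKM in Ca1a control cells. The 6 epithelial markers examined were each at least 2-fold lower in the MDA-MB-231 control than in the Ca1a control, with EPCAM at 3.10 against 131 FPKM, and the mesenchymal marker VIM stood at 721 against 90.5 FPKM. Of 6 fibroblast, immune and endothelial markers, each was under 2 FPKM in every library, and PECAM1, an endothelial adhesion gene, was higher in both treated libraries, at 0.734 FPKM in knockdown cells and 0.400 FPKM in control cells, and at 1.36 FPKM in overexpressing cells and 0.865 FPKM in Ca1a control cells. The part of such cells in the results was not tested. Without a second library in any group the differences have no replicate check, and no p-value was computed. The 95% intervals cover counting error only. RNA came from whole cultures, so fewer expressing cells and less RNA per cell cannot be told apart.

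The 7 metallothionein genes lie on chromosome 16 within 76.0 kb (56608199 to 56684196, GENCODE release 29 on GRCh38). MT1G is on the minus strand and the other 6 are on the plus strand. Each encodes a protein of 61 residues from 3 exons. MTF1 (11 exons) and SLC30A1 (2 exons) are on the minus strand of chromosome 1, from 37809567 to 37859620 and from 211571568 to 211578742. The metallothionein coding sequences were 88.7% to 95.2% identical over 21 pairs, with a median of 91.9%. MT1G and MT2A were the most alike pair. Over whole transcripts the longest identical stretch between members was 96 bases, shared by MT1G and MT1X. Of the 50-base stretches of each member's main transcript, 45.1% of those of MT1X and 20.2% of those of MT1G also occurred in another GENCODE gene, against 4.89% for MT2A and 5.34% for MT1E. At 100 bases MT1X alone among the 9 genes had such stretches, 19.1% of them, all shared with AC026461.1, an annotated transcript that overlaps MT1X on the same strand. The sources used here do not state the read length. The shares at 50 bases were 5.76% for MT1A, 3.59% for MT1F and 7.05% for MT1M. Reads could be split between copies or dropped, so MT1X and MT1G are the most uncertain in this respect. MT1A, MT1F and MT1M are limited by low counts as well. MTF1 overlaps the pseudogene AL929472.4 on the opposite strand.

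Promoter windows from 250 bases before to 50 bases after the RefSeq start (build GRCh38.p14) matched 4 of the 9 genes. They are shown because MTF1 acts through metal response elements, known from metallothionein promoters. The core was searched on both strands as TGCACNC and TGCGCNC, and capitals mark each match, in either orientation. The windows are MT2A at chr16:56608334-56608633 and MT1X at chr16:56682220-56682519, both on the plus strand, and SLC30A1 at chr1:211579112-211579411 on the minus strand. RefSeq and GENCODE starts differ for all 4 of these genes, and most for MT2A and SLC30A1. The MT2A window lies inside the GENCODE gene, which begins at 56608199. The SLC30A1 window lies wholly upstream of the GENCODE gene, which reaches 211578742.
MT2A: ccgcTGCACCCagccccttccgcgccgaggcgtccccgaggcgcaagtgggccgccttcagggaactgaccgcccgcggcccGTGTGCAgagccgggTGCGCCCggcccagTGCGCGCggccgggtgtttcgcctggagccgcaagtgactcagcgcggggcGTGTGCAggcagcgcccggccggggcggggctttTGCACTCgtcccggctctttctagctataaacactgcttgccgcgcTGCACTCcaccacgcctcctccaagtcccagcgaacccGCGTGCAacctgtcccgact
MT1X: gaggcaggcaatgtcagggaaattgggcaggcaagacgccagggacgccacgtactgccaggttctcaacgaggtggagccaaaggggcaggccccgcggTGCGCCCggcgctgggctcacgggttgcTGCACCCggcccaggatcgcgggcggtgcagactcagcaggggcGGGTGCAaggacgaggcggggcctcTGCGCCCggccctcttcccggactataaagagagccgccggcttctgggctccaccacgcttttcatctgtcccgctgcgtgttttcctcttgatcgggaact
SLC30A1: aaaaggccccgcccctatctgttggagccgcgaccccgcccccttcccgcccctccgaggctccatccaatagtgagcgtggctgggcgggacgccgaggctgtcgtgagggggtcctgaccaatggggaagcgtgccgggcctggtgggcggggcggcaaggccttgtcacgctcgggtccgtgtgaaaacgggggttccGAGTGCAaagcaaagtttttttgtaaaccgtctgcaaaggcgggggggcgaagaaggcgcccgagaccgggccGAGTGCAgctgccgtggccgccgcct

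The MT2A window held 8 matches, the MT1X window 4 and the SLC30A1 window 2, none overlapping another. Of 35116 promoter windows in the table, 29.6% held at least 1 match, 12.1% the first core and 20.0% the second. At least 8 separate matches occurred in 6 windows (0.0171%), at least 4 in 0.339% and at least 2 in 7.51%. The window of MTF1 itself held 0 matches. A match is a description of letters and not a measured binding site.

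**Figure D1:**
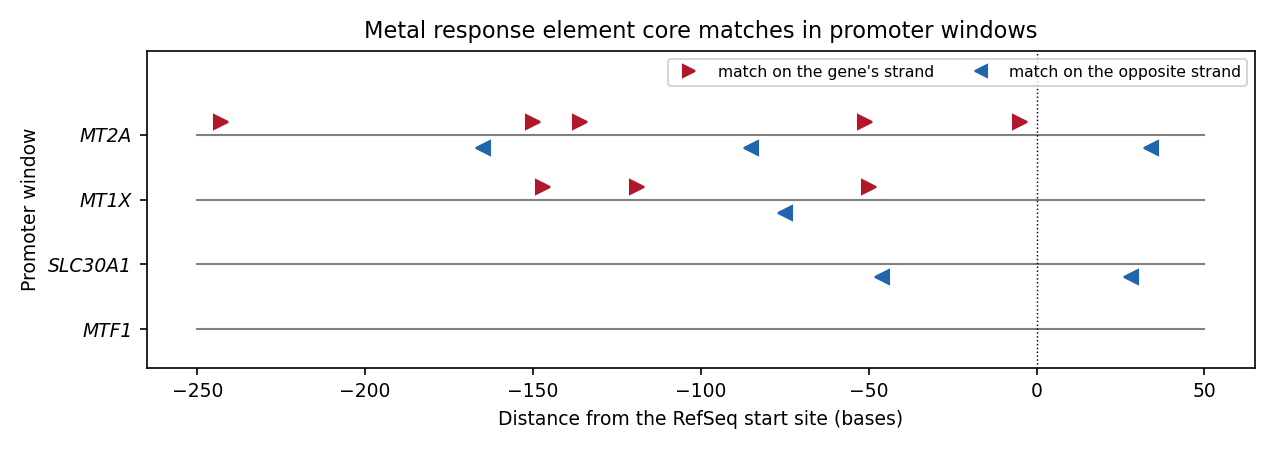
Positions of metal response element core matches in the 4 promoter windows, with distance from the RefSeq start site in bases on the x axis and 1 line per gene. Right-pointing triangles are matches on the gene's strand and left-pointing ones matches on the opposite strand; MT2A has 8, MT1X 4, SLC30A1 2 and MTF1 0.

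In all 4 libraries MT2A was the most abundant of the 9 transcripts per length. It stood at 1542 FPKM in knockdown cells and 1978 FPKM in control cells, and at 1237 FPKM in overexpressing cells and 1356 FPKM in Ca1a control cells. Among all genes ranked by FPKM it was number 8 and number 5 in those MDA-MB-231 libraries, and number 26 and number 24 in those of Ca1a.

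MT1X came second in every library, at 128 FPKM in knockdown cells and 141 FPKM in control cells, and at 42.2 FPKM in overexpressing cells and 44.6 FPKM in Ca1a control cells. MT1E stood at 55.2 FPKM in knockdown cells and 52.8 FPKM in control cells. In Ca1a it stood at 1.17 FPKM in overexpressing cells and 0.719 FPKM in control cells. MT1E thus came next after MT1X in both MDA-MB-231 libraries and lay below MTF1 and SLC30A1 in both Ca1a libraries. MT1A stood at 14.7 FPKM in knockdown cells and 17.0 FPKM in control cells, and was listed at 0 in both Ca1a libraries.

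The remaining metallothioneins were near or below detection. MT1F had 1.93 FPKM in knockdown cells and 2.56 FPKM in control cells, and 0.700 FPKM in overexpressing cells, and was listed at 0 FPKM in the Ca1a control although 4 reads were counted there. MT1M had 2 reads in each MDA-MB-231 library and 0 in both Ca1a libraries. MT1G was at 0 reads in all 4 libraries, and a count of 0 allows up to 3 reads.

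Of 10 further metallothionein genes and pseudogenes looked for, 6 had rows in the tables. Among these, MT1H, MT1HL1, MT2P1, MT3 and MT4 had 0 reads in every library, and MT1B had 1 read, in knockdown cells. MT1L, MT1DP, MT1JP and MT1XP1 were not analysed here.

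The regulator and the exporter differed less between libraries than MT1E and MT1X did. MTF1 stood at 2.41 FPKM in knockdown cells and 2.42 FPKM in control cells, and at 2.92 FPKM in overexpressing cells and 3.11 FPKM in Ca1a control cells. SLC30A1 stood at 13.2 FPKM in knockdown cells and 12.4 FPKM in control cells, and at 19.8 FPKM in overexpressing cells and 20.6 FPKM in Ca1a control cells. Both were thus higher in each Ca1a library than in each MDA-MB-231 library, whereas MT2A, MT1X and MT1E were lower there.

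**Figure D2:**
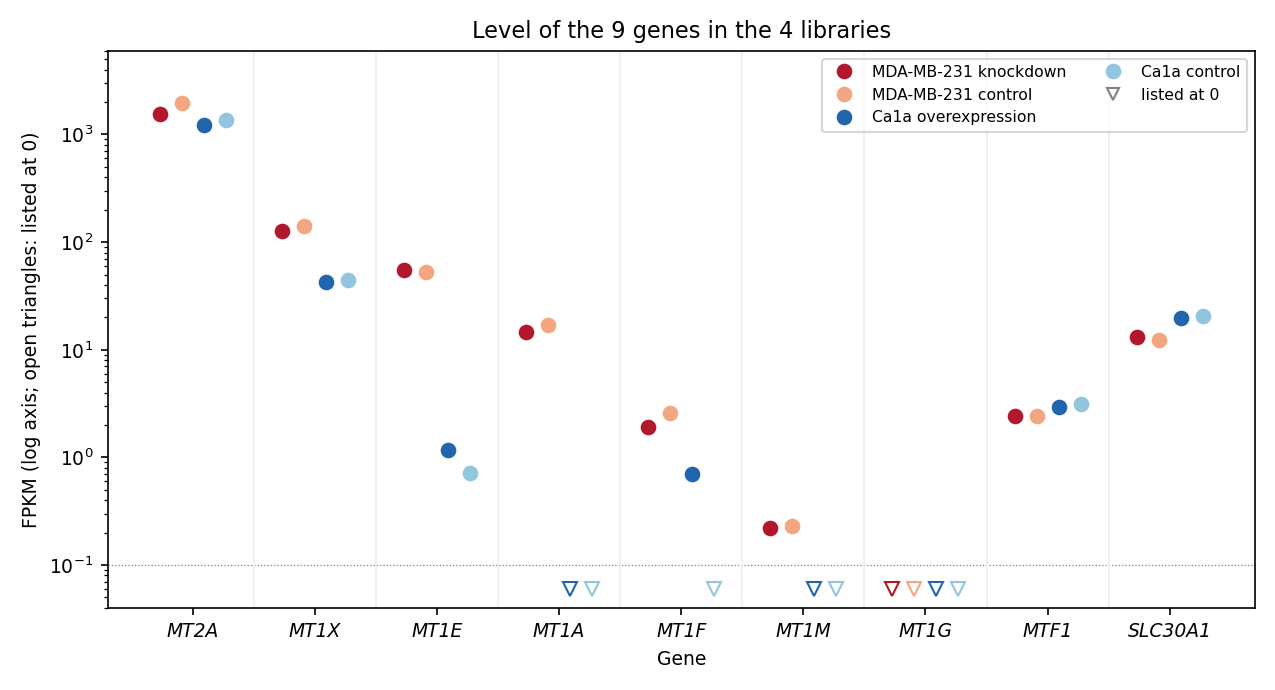
Level of each of the 9 genes in FPKM on a log axis, with 1 point per library; open triangles at the bottom are genes listed at 0. MT2A lies between 1237 and 1978 FPKM in all 4 libraries, while MT1E separates the lines, at 55.2 and 52.8 FPKM in MDA-MB-231 knockdown and control cells and at 1.17 and 0.719 FPKM in Ca1a overexpressing and control cells.

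The order of MT1X and MT1E in MDA-MB-231 depends on the length correction. In reads MT1E was the larger, with 927 reads in knockdown cells and 907 in control cells, against 482 and 506 reads of MT1X in those libraries. The FPKM of MT1E corresponded to a length of 784 and 831 bases there (RPM, reads scaled to the library total, divided by FPKM), against 176 and 173 bases for MT1X and 200.4 and 198 bases for MT2A. The main GENCODE transcripts, the longest principal one of each gene, are 704 bases for MT1E, 450 bases for MT1X and 786 bases for MT2A. The GENCODE gene of MT2A begins upstream of the RefSeq start, so its length depends on the annotation. Levels of different metallothioneins therefore rest on the authors' length model, for which the sources used here give no detail.

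Summed over the 7 genes, metallothionein transcripts reached 1742 FPKM in knockdown cells and 2191 FPKM in control cells, and 1281 FPKM in overexpressing cells and 1401 FPKM in Ca1a control cells. MT2A made up 88.5% of that sum in knockdown cells and 90.2% in control cells, and 96.6% in overexpressing cells and 96.8% in Ca1a control cells. Of metallothionein reads, MT2A took 81.6% in knockdown cells (exact Clopper-Pearson interval 80.7% to 82.4%) and 84.4% in control cells (83.7% to 85.1%). In Ca1a it took 96.3% of reads in overexpressing cells (95.7% to 96.8%) and 96.7% in the control (96.2% to 97.1%). MT1E took 11.4% of reads in knockdown cells (10.7% to 12.1%) and 9.44% in control cells (8.86% to 10.0%), but 0.508% in overexpressing cells (0.338% to 0.733%) and 0.229% in Ca1a control cells (0.125% to 0.384%). Each share also depends on the other genes in the sum. The normalized counts of MT1E were 921 in knockdown cells and 913 in control cells, a ratio of 1.01 (0.920 to 1.11). Near-identical copies can share reads, so the shares are uncertain beyond counting error.

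**Figure D3:**
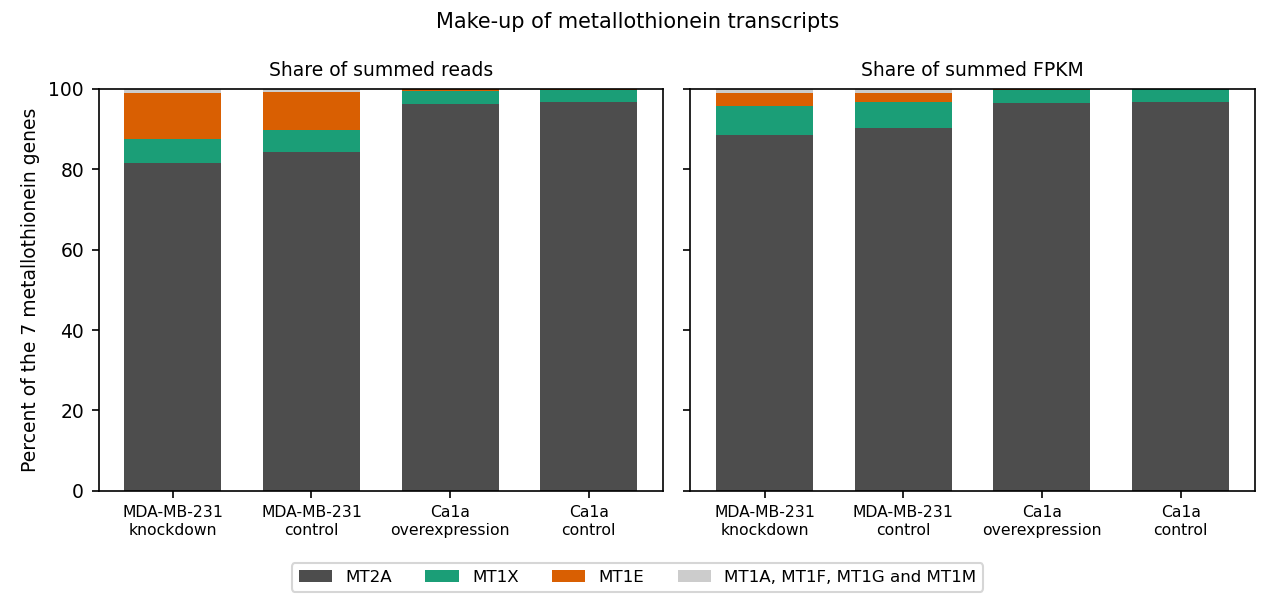
Make-up of the 7 metallothionein genes in each library, as the percent of their summed reads (left) and of their summed FPKM (right). MT2A takes 81.6% to 96.7% of reads, and the MT1E part, 11.4% and 9.44% of reads in MDA-MB-231, is under 1% in Ca1a.

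The first question was what happened to these transcripts when TMEM126A was lowered in MDA-MB-231. MT2A was the only member whose interval left out a ratio of 1, and it was lower. It had 6574 normalized counts in knockdown cells (6417 to 6735, exact Poisson) and 8161 in control cells (7985 to 8341), a ratio of 0.806 (0.780 to 0.832), or 1.24-fold lower (1.20 to 1.28). By the rule of size used here (a level at least 25% higher in 1 of the libraries, 20 or more normalized counts on average, and an interval that leaves out 1) it fell just short. It passed as lower when scaled by total reads (ratio 0.788), by TMM (0.798) or in FPKM (0.780), as did 3.1%, 2.66% and 2.42% of all genes tested. In the authors' deposited table the p-value of MT2A was 0.00652 and its adjusted p-value 0.690, from 1 library against 1.

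Every other metallothionein member with reads had an interval that included 1. Those of MT1A and MT1F also held the MT2A ratio of 0.806, and that of MT1X overlapped the MT2A interval (0.780 to 0.832). The counts therefore cannot tell whether MT1A, MT1F and MT1X followed MT2A. MT1X had 479 normalized counts in knockdown cells and 509 in control cells, a ratio of 0.941 (0.829 to 1.07). MT1E had 921 in knockdown cells and 913 in control cells, a ratio of 1.01 (0.920 to 1.11). MT1A had 61.6 and 63.4 in those libraries, a ratio of 0.972 (0.673 to 1.40). MT1F had 20.9 and 18.1, a ratio of 1.15 (0.585 to 2.29), whereas the ratio of FPKM was 0.755. Summed without MT2A, the metallothioneins had 1485 normalized counts in knockdown cells and 1505 in control cells, a ratio of 0.986 (0.918 to 1.06). With MT2A the sum was 1.20-fold lower (1.16 to 1.24).

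SLC30A1 had 662 normalized counts in knockdown cells and 609 in control cells, a ratio of 1.09 (0.973 to 1.22). MTF1 had 696 in knockdown cells and 684 in control cells, a ratio of 1.02 (0.914 to 1.13). The intervals of both included 1.

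By the rule of size 0 of the 6 members that reached a mean of 20 were called in either direction, where 6.28% of 13292 genes passed (3.98% higher, 2.3% lower). Intervals alone left out 1 for 1 of those 6 members, against 28.1% of all genes tested (16.8% higher, 11.3% lower). The median log2(value + 1) ratio of the 4 metallothioneins with that mean was -0.06, beside 0.01 for all genes tested.

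The second question was what happened to them when TMEM126A was raised in Ca1a. MT2A was again slightly lower, and MT1E had too few reads to be read either way. MT2A had 5310 counts in overexpressing cells (5168 to 5455) and 5910 in Ca1a control cells (5760 to 6063), a ratio of 0.898 (0.866 to 0.933), or 1.11-fold lower (1.07 to 1.16). MT1E had 28 counts in overexpressing cells (18.6 to 40.5) and 14 in Ca1a control cells (7.65 to 23.5), a ratio of 2.0 (1.02 to 4.11) and of 1.63 in FPKM. In the authors' deposited table the p-value of MT1E was 0.109, and the adjusted p-value was 1 for every member that had one.

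MT1X had 172 counts in overexpressing cells and 186 in Ca1a control cells, a ratio of 0.925 (0.747 to 1.14). MT1F had 5 and 4 counts, with a ratio interval of 0.269 to 6.30. MT1A, MT1M and MT1G had 0 counts in both. Summed without MT2A, the metallothioneins had 205 counts in overexpressing cells and 204 in Ca1a control cells, and with MT2A the sum was 1.11-fold lower (1.07 to 1.15). SLC30A1 had 988 counts in overexpressing cells and 1019 in Ca1a control cells, a ratio of 0.970 (0.887 to 1.06). MTF1 had 855 and 886 counts, a ratio of 0.965 (0.877 to 1.06).

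By the rule of size 1 of the 5 members that reached a mean of 20, MT1E, was called higher and 0 lower, where 4.22% of 12111 genes passed as higher and 4.21% as lower (8.43% in all). MT1E had a mean of 21.0 counts, which reached the filter only through overexpressing cells, and was no longer tested with a mean of at least 100, so nothing is read from that call. Intervals alone left out 1 for 2 of those 5 members, against 34.3% of all genes tested (18.1% higher, 16.2% lower). The 2 were MT2A, lower, and MT1E, from which nothing is read here either. The median log2(value + 1) ratio of the 3 metallothioneins with that mean was -0.11, beside 0.01 for all genes tested.

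**Figure D4:**
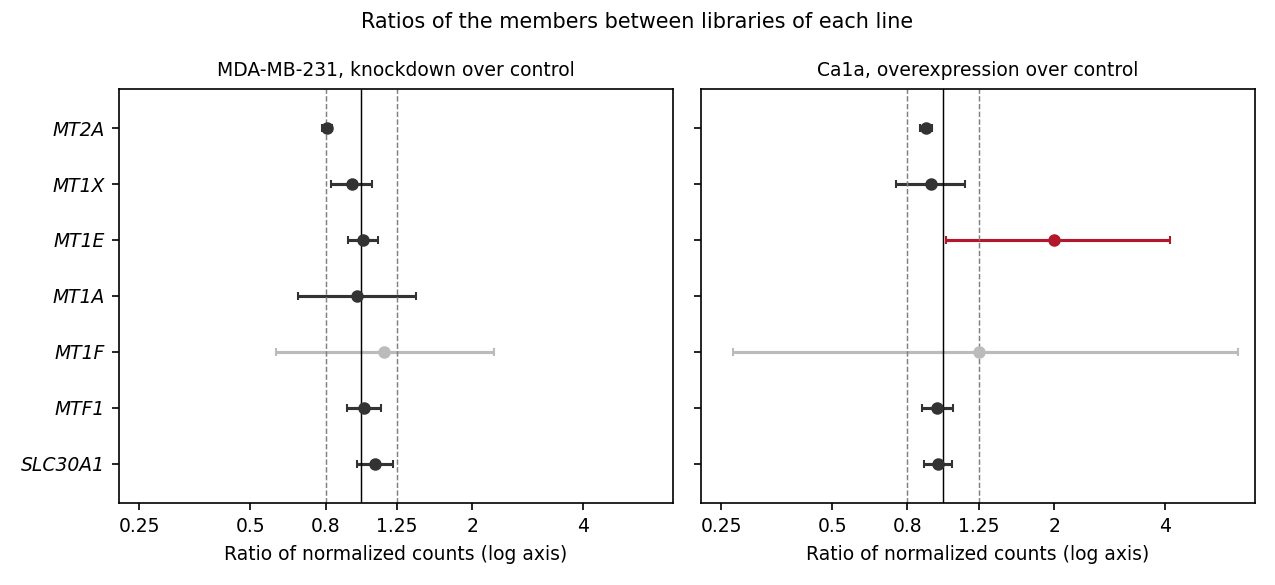
Ratio of normalized counts (whole-number counts in Ca1a) for 7 members, for MDA-MB-231 (left, knockdown over control) and Ca1a (right, overexpression over control). MT1M and MT1G are not drawn, and MT1A has no reads in Ca1a. The axes are logarithmic, bars are 95% counting intervals and dashed lines mark the limits of the rule of size. Grey points have a mean under 20 counts and the red point passes the rule of size. MT2A lies at 0.806 on the left and 0.898 on the right, and MT1E at 1.01 on the left and 2.0 on the right. The right-hand MT1E point rests on 28 counts in overexpressing cells and 14 in Ca1a control cells.

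The third comparison set the MDA-MB-231 control against the Ca1a control. MT1E and MT1A were far higher in MDA-MB-231, MT1X and MT2A less so, and SLC30A1 and MTF1 were lower. MT1E was 73.4-fold higher in FPKM (52.8 FPKM in MDA-MB-231 and 0.719 FPKM in Ca1a) and 66.8-fold higher in RPM (39.6 to 123). Its FPKM ratio was 31.3 with a pseudocount of 1. MT1A had 63 reads in the MDA-MB-231 control and 0 in the Ca1a control, which is at least 21.6-fold higher in RPM against a floor of 3 reads in that Ca1a library, with the 63 reads taken as exact. With counting error in both libraries the lower limit of the MT1A ratio was 17.1. MT1X was 3.17-fold higher in FPKM and 2.80-fold higher in RPM (2.36 to 3.33).

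MT2A was 1.46-fold higher in FPKM and 1.41-fold higher in RPM (1.37 to 1.46). MT1F had 18 reads in the MDA-MB-231 control and 4 in the Ca1a control, 4.64-fold higher in RPM (1.53 to 18.8). SLC30A1 was 1.66-fold lower in FPKM and 1.63-fold lower in RPM (1.48 to 1.81), and MTF1 was 1.28-fold lower in FPKM and 1.26-fold lower in RPM (1.14 to 1.40).

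At 2-fold or more in FPKM, with at least 1 FPKM in either control, 4 of 7 members (MT1E, MT1A, MT1X and MT1F, with MT1A and MT1F listed at 0 in Ca1a) were higher in MDA-MB-231 and 0 lower, where 27.5% of 12101 genes were higher and 14.0% lower (41.5% in all). MT1E, MT1A and MT1F reached 1 FPKM in MDA-MB-231 alone and could be called in that direction only, so nothing is read from the count. The count tables of the lines were on separate scales, so reads were scaled here by library totals. Scaling by TMM instead of total reads moved the median log2 ratio of all genes by -0.36. On that scale MT1E was 52.1-fold, MT1X 2.19-fold and MT2A 1.10-fold higher in MDA-MB-231, the MTF1 ratio was 0.617, and the SLC30A1 ratio of 0.477 passed the 2-fold limit as lower.

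Glucocorticoids are known inducers of MT2A, and hydrocortisone was in the Ca1a medium. Of 9 glucocorticoid-related genes, 6 were at least 2-fold lower and 2 at least 2-fold higher in the MDA-MB-231 control. Of the 12101 genes with at least 1 FPKM in either control, 14.0% were lower and 27.5% higher by that limit. ZBTB16 reached 1 FPKM in Ca1a alone, and SGK1 and CRISPLD2 in MDA-MB-231 alone. Each of these could be called in that direction only, so nothing is read from the counts. FKBP5, a glucocorticoid-induced co-chaperone gene, stood at 5.08 FPKM in the MDA-MB-231 control and 33.2 FPKM in the Ca1a control, and PER1 at 2.32 and 30.8 FPKM. TSC22D3, which encodes the glucocorticoid-induced leucine zipper protein, stood at 2.35 and 31.7 FPKM, KLF9 at 1.61 and 12.1 FPKM and DUSP1 at 19.9 and 87.0 FPKM in those libraries. ZBTB16 was listed at 0 in MDA-MB-231 and stood at 2.38 FPKM in Ca1a. SGK1 at 6.07 and 0.875 FPKM, and CRISPLD2 at 4.55 FPKM in MDA-MB-231 and listed at 0 in Ca1a, ran the other way, and the receptor gene NR3C1 stood at 11.7 and 16.7 FPKM. The part of the medium in the metallothionein levels was not tested.

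Zinc also moves through other SLC30 transporters, most of which carry it out of the cytosol or into organelles and vesicles. The SLC39 transporters bring it into the cytosol. In the knockdown comparison 0 of 6 other SLC30 genes with a mean of 20 were called, where 6.28% of all genes were. Their median log2 ratio was -0.05, with 2 intervals above 1, 1 below and 3 including it. SLC30A9 was 1.11-fold higher (1.05 to 1.17) and SLC30A5 1.08-fold higher (1.01 to 1.15), whereas SLC30A7, a Golgi zinc transporter gene, was 1.14-fold lower (1.06 to 1.22). SLC30A3 had 20.9 normalized counts in knockdown cells and 34.2 in control cells (ratio 0.610, 0.336 to 1.08), and SLC30A4 had 121 and 151 (0.803, 0.627 to 1.03).

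In the same comparison 0 of 10 SLC39 genes were called, where 6.28% of all genes were. The list had a median of 0.12, with 5 intervals above 1 and 1 below. SLC39A6 was 1.14-fold higher (1.07 to 1.21), SLC39A1 1.13-fold higher (1.09 to 1.18) and SLC39A3 1.12-fold higher (1.02 to 1.24). SLC39A14 and SLC39A9 had ratios of 1.09 and 1.08, and SLC39A13 was 1.09-fold lower (1.03 to 1.15). These shares stand beside the 16.8% and 11.3% of all genes whose intervals lay above and below 1.

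In the overexpression comparison 0 of 5 other SLC30 genes were called, with a median of -0.10, where 8.43% of all genes were called. SLC30A5 and SLC30A9 were each 1.10-fold higher and SLC30A7 was 1.10-fold lower, with intervals that left out 1. SLC30A4 had 78 counts in overexpressing cells and 97 in Ca1a control cells (ratio 0.804, 0.589 to 1.09).

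Of 10 SLC39 genes tested in Ca1a 1 was called, where 8.43% of all genes were. SLC39A10, which encodes a plasma membrane zinc importer, had 1083 counts in overexpressing cells and 802 in Ca1a control cells, 1.35-fold higher (1.23 to 1.48) and 1.29-fold higher in FPKM. SLC39A1 was 1.14-fold higher (1.06 to 1.22) and SLC39A6 1.10-fold higher (1.04 to 1.16). The list had a median of 0.04, with 3 intervals above 1 and 0 below, beside 18.1% above and 16.2% below over all genes. SLC39A7 is listed at 0 in every library, and whether its reads were lost before counting was not tested.

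**Figure D5:**
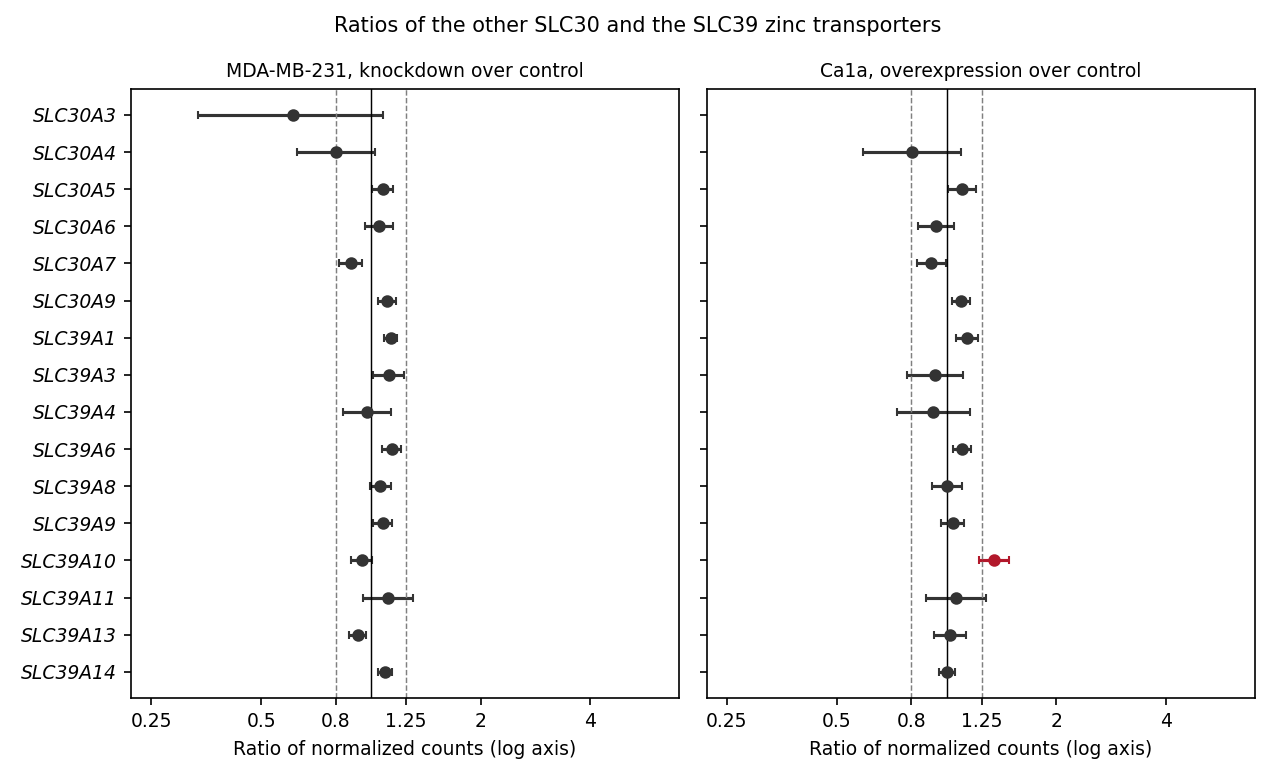
Ratio of normalized counts (whole-number counts in Ca1a) for the other SLC30 and the SLC39 genes with a mean of at least 20 in either line. MDA-MB-231 is on the left (knockdown over control) and Ca1a on the right (overexpression over control). The axes are logarithmic, bars are 95% counting intervals and dashed lines mark the limits of the rule of size. SLC39A10, at 1.35 in Ca1a, is the point that passes the rule of size.

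Likeness of pattern was measured as the Euclidean distance between log2 FPKM profiles over the 4 libraries, each centred on its own mean, from the mean profile of MT2A and MT1X, the metallothioneins with at least 1 FPKM in every library. Among 9519 other genes the nearest were PFAS (0.02), BRCA2 (0.05), CANT1 (0.05), FAM91A1 (0.06) and GINS3 (0.07). The distance between MT2A and MT1X themselves was 1.21, above the median of 0.95 over all those genes, so the mean profile lies between a pair that differ. PFAS, which encodes a purine synthesis enzyme, stood at 14.3 FPKM in knockdown cells and 16.7 FPKM in control cells, and at 7.22 FPKM in overexpressing cells and 7.85 FPKM in Ca1a control cells.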

How the data were processed

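RNA-seq of 4 libraries was analysed, 1 per group. The submitters' processing notes name the builds hg38 and GRCh38.p5 and the tools DESeq, HTSeq, Cufflinks and HISAT2, without versions or roles. No strand setting is stated. Whole-number counts per gene of Ca1a were deposited by the authors, in columns headed as DESeq base means. Ca1a ratios used these counts with no further scaling for depth. The library totals were 21359273 reads in overexpressing cells and 21302171 in the Ca1a control. The deposited signal of MDA-MB-231 is also a DESeq base mean, per the file headers. All values were whole multiples of the column's lowest nonzero value (tolerance 1e-06), and reads were taken as those multiples. The authors also deposited FPKM, log2 fold changes, and p-values and adjusted p-values, which were copied.

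Ratios carry exact conditional binomial intervals, levels exact Poisson intervals and shares Clopper-Pearson intervals, all at 95%; reads without molecular identifiers are not independent molecules. Calls were computed over all genes and tested on simulated data. Alternatives were scaling by total reads or TMM, FPKM, pseudocounts, filters, thresholds and no interval. Coding identity used global alignment of the principal GENCODE release 29 transcripts.

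The members and lists were chosen with earlier results of these data known. Named genes are the 9 members, called genes of each list or else at most 3 with the largest log2 ratios, and the 5 nearest profiles. Other genes whose interval left out 1, the glucocorticoid genes in the control comparison and those listed at 0 were named after their values were seen. Software was edgeR 4.0.16 (TMM) in R 4.3.3, and biopython 1.88, matplotlib 3.10.9, scipy 1.17.1, pandas 2.3.3 and numpy 2.4.6 in python 3.11.15.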

Additional observations from a re-analysis of the deposited data

How the results depend on the processing

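With 1 library per group there is no replication, and low counts limit MT1A, MT1F, MT1M and MT1G, and MT1E in Ca1a. No paired analysis was possible because each group held 1 library. Of 135 recomputed values, 116 stayed within their counting interval, within 1.5 times a count or within 0.1 of a median with its sign. Members called in the knockdown comparison numbered 1 (MT2A) instead of 0 with total reads, with TMM and with FPKM, and in the overexpression comparison 0 instead of 1 with a mean of at least 100. The metallothionein median was -0.17 with FPKM in the knockdown comparison and 0.075 with no filter in the overexpression comparison. Between the controls, TMM gave ratios of 2.19 for MT1X, 1.10 for MT2A, 0.617 for MTF1 and 0.477 for SLC30A1, and a pseudocount of 1 gave 31.3 for MT1E. With summed counts in place of FPKM, the shares in knockdown cells were 11.4% for MT1E, 5.94% for MT1X and 81.6% for MT2A; in control cells they were 9.44%, 5.27% and 84.4%; MT1E took 0.508% in overexpressing cells and 0.229% in control cells. The cause of these shifts was not tested.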

Other observations

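Copper handling and stress genes were examined beside the metallothioneins. In Ca1a, COX17, which encodes a copper chaperone for cytochrome c oxidase, had 582 counts in overexpressing cells and 420 in Ca1a control cells, 1.39-fold higher (1.22 to 1.57) and the only 1 of 9 copper genes called, where 8.43% of all genes were. In MDA-MB-231 the COX17 ratio was 0.999 (0.840 to 1.19), and 0 of 9 copper genes were called, where 6.28% of all genes were. SLC31A1, the copper importer gene, was 1.08-fold lower there (1.01 to 1.14).

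Of 7 metal and proteotoxic stress genes with a mean of 20, 0 were called in either line. Over all genes tested 6.28% were called in the knockdown comparison and 8.43% in the overexpression comparison. Intervals alone left out 1 for 28.1% and 34.3% of all genes in those comparisons. HMOX1, a heme oxygenase gene strongly induced by heavy metals, had a ratio of 0.939 (0.821 to 1.07) in the knockdown comparison and 0.925 (0.741 to 1.15) in the overexpression comparison. TXNRD1, the thioredoxin reductase gene, was 1.11-fold higher (1.08 to 1.13) in knockdown cells and 1.05-fold lower (1.02 to 1.07) in overexpressing cells. SRXN1 and DNAJB1 were 1.07-fold and 1.10-fold higher in knockdown cells, and 1.11-fold and 1.07-fold lower in overexpressing cells, with intervals that left out 1. In overexpressing cells OSGIN1 was 1.20-fold lower (1.01 to 1.42) and HSPH1, a heat shock protein gene, was 1.15-fold higher (1.07 to 1.23), while their ratios in the knockdown comparison were 0.994 and 1.02, with intervals that included 1. HSPA1A and HSPA1B are listed at 0 in every library, and whether their reads were lost before counting was not tested.

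Among glucocorticoid-related genes, TSC22D3 was 1.41-fold higher (1.18 to 1.69) in knockdown cells and 1.31-fold higher, with an interval that left out 1, in overexpressing cells. FKBP5 was 1.27-fold lower (1.18 to 1.37) in knockdown cells and had a ratio of 1.07 in overexpressing cells. DUSP1, a phosphatase gene of the immediate early response, was 1.46-fold lower (1.39 to 1.53) in overexpressing cells.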
